A study of Mus musculus with 6 samples.

Results

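Transcripts of 10 genes of lymphoid priming and B cell development were followed on 6 mouse arrays of hematopoietic stem cells (HSC), which sit in the marrow and give rise to every kind of blood cell. The genes were chosen by name from 19935 genes with a probe set of their own on the array, and each was read by 1 probe set. They comprise 3 early priming genes, Dntt, Il7r and Rag1. The other 7, Rag2, Ebf1, Pax5, Cd79a, Cd79b, Vpreb1 and Fcmr, are called later B cell genes here. For Rag2 this is a grouping only, as it acts together with Rag1. There were 3 arrays of HSC from Selp-/- mice, which lack the adhesion receptor P-selectin, and 3 of HSC from wild-type (WT) mice, all of strain C57BL/6 by the labels. The labels number the arrays 1 to 3 within each genotype, and do not say what a number stands for, how the cells were sorted, how old the mice were or whether each array had its own mouse. The p-values therefore reflect how these arrays varied, and that variation may be technical. RNA was amplified with a NuGEN kit before labelling. The study set the genotypes against each other to ask how P-selectin acts in HSC, and no probe set is annotated as Selp, so its own level is not given.

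Levels are log2 intensities after background correction and quantile normalization, and a difference of 1 is a factor of 2. A level compares 1 probe set across arrays and cannot be set against another probe set, nor can fewer cells of a type be told apart from less RNA per cell. Probe sets with a mean level under 8.79 over the 6 arrays were not tested, which left 17289, among them those of 8 of the 10 genes. Rag1 and Rag2 lay under that level and are given as values. The arrays numbered 3 were alike in both genotypes and stood apart from the other 4. HSC markers were low on them and mast cell, neutrophil and monocyte markers high, although all 6 arrays carry the same label, so each genotype mean below includes 1 array of that unlike profile.

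Lymphoid priming is the low-level transcription of lymphoid genes in multipotent progenitors before they commit to a lineage. Dntt encodes terminal deoxynucleotidyl transferase, which adds nucleotides at the joints of antigen receptor genes, and Il7r the alpha chain of the interleukin-7 receptor, which feeds survival signals to lymphoid progenitors. Rag1 and Rag2 form the recombinase that cuts those receptor genes. Ebf1 and Pax5 are transcription factors that specify the B lineage and hold cells to it. Vpreb1 is part of the surrogate light chain of the pre-B cell receptor, Cd79a and Cd79b are the signalling chains of the B cell receptor, and Fcmr is a receptor for the Fc part of IgM.

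The promoter windows of 4 tested genes, Dntt and Il7r with the widest differences by array number and Cd79a and Fcmr with the widest by genotype, chosen after their values were seen, are shown to place these genes in the genome. They come from RefSeq (build GRCm38.p6), run from 250 bases before to 50 after the start of the gene on its own strand, and have E-boxes, the CANNTG motif bound by lymphoid E proteins such as E2A, in capitals. Dntt lies at chr19:41029025-41029324 on the plus strand and Il7r at chr15:9529827-9530126 on the minus strand. Cd79a lies at chr7:24897247-24897546 and Fcmr at chr1:130865527-130865826, both on the plus strand.
Dntt: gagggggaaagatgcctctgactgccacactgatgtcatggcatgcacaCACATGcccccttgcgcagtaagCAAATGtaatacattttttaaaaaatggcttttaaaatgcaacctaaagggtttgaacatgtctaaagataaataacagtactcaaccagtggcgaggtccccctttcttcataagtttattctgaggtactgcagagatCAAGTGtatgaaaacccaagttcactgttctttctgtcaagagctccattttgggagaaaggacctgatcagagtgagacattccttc
Il7r: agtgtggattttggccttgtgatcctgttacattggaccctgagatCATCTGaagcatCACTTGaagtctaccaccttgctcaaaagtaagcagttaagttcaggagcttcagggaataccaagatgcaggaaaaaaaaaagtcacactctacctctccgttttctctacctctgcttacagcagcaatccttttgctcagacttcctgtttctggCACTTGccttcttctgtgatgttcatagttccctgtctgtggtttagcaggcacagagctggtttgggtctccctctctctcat
Cd79a: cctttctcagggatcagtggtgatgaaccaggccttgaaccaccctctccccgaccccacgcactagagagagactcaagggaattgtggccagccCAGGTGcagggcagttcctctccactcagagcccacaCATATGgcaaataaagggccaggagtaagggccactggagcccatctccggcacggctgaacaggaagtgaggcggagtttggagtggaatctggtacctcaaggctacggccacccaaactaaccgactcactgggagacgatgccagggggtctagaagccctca
Fcmr: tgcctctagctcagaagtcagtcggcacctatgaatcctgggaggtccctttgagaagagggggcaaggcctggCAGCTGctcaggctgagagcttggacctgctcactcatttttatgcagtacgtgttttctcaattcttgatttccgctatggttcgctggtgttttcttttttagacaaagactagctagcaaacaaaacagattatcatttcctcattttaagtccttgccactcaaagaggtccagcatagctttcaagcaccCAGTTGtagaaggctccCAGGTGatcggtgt

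The Dntt, Il7r and Fcmr windows hold 3 E-boxes each and the Cd79a window holds 2. The motif reads the same on both strands, and 72.3% of the 32851 windows in the table have at least 1. CAGGTG, a form bound by E2A, was searched on both strands and lies in the Cd79a and Fcmr windows but has no match in those of Dntt and Il7r. It lies in 20.2% of all windows and overlaps the E-boxes above, being one of them. A window was found for 9 of the 10 genes, all but Cd79b.

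Array number, not genotype, went with the widest differences among these genes, and the early priming genes Dntt and Il7r moved in opposite directions. Dntt measured 11.10, 11.45 and 7.999 in Selp-/- 1, 2 and 3, against 11.17, 11.49 and 7.96 in WT 1, 2 and 3. Both arrays numbered 3 lay far below the other 4, as they did for 25.1% of all tested probe sets, and the genotypes overlapped. In deposited intensities Dntt gave 397.5 in Selp-/- 3 and 408.5 in WT 3, while the other 4 arrays ran between 2304 and 2731.5. The log2 difference was -3.15 (SE 0.12) for number 3 minus number 1 and -3.49 (SE 0.12) for number 3 minus number 2, so that the level was 8.90 times higher in number 1 and 11.2 times higher in number 2 than in number 3. These folds changed with the processing and were 6.39 and 7.98 without background correction, and 6.03 and 5.83 with log2(value + 16) and no normalization. Dntt fell in number 3 past the threshold (limma F test of array number with genotype in the fit, adjusted p = 0.000107), and its level there lay under the 8.79 that probe sets needed on average to be tested.

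Il7r measured 9.15, 9.03 and 10.74 in Selp-/- 1, 2 and 3, against 8.72, 9.54 and 11.37 in WT 1, 2 and 3. Here both arrays numbered 3 lay above the other 4, as they did for 20.1% of all tested probe sets. The deposited intensity was 2017 in Selp-/- 3 and 3177 in WT 3, and between 516 and 724 elsewhere. Number 3 averaged 2.12 (SE 0.25) above number 1 and 1.77 (SE 0.25) above number 2, factors of 4.34 and 3.40, and the rise passed the threshold (limma F test, adjusted p = 0.00555). Without Selp-/- 2 the difference from number 2 was 1.58, with an adjusted p of 0.0512.

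Rag1 and Rag2 lie next to each other on chromosome 2 and were both dim. Rag1 measured 8.49, 8.87 and 8.75 in Selp-/- 1, 2 and 3, against 8.52, 8.71 and 8.58 in WT 1, 2 and 3. Its whole range was thus small, and neither the arrays numbered 3 nor a genotype stood apart. Rag2 measured 8.07, 7.97 and 7.21 in Selp-/- 1, 2 and 3, against 8.12, 8.10 and 7.18 in WT 1, 2 and 3. The arrays numbered 3 lay below the other 4 in both genotypes, as for Dntt and unlike Rag1. With no filter on dim probe sets the adjusted p of array number was 0.437 for Rag1 and 0.0160 for Rag2 (limma), and no detection call was used.

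**Figure D1:**
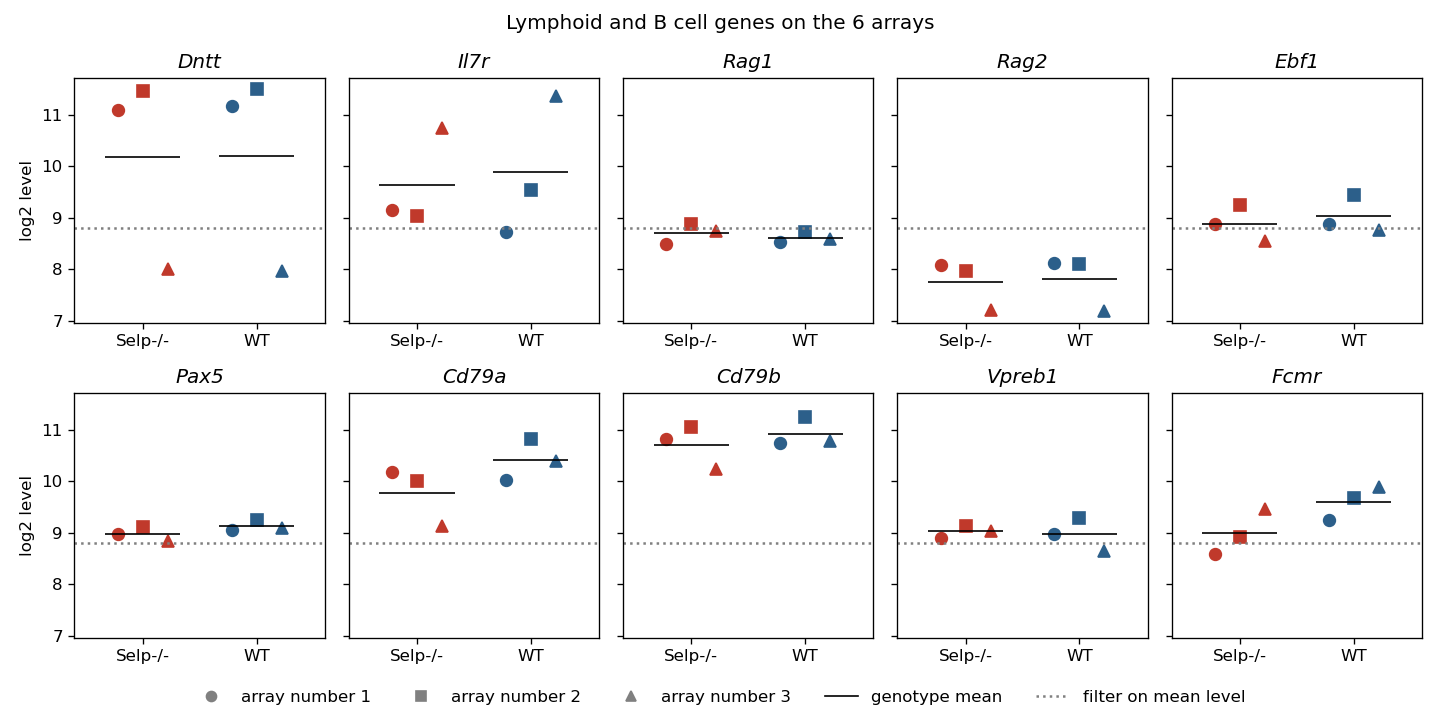
Log2 level of each of the 10 genes on the 6 arrays, Selp-/- left of WT in each panel, with 1 point per array, a bar at the genotype mean and a dotted line at the mean level of 8.79 needed for testing. Dntt is low and Il7r high on both arrays numbered 3, while in all 10 panels the genotypes overlap.

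The transcription factors of the B lineage were close to that level throughout. Ebf1 measured 8.87, 9.24 and 8.54 in Selp-/- 1, 2 and 3, against 8.87, 9.43 and 8.76 in WT 1, 2 and 3. It was highest in the arrays numbered 2 and lowest in those numbered 3, with a difference of -0.69 (SE 0.13) from number 2 and of -0.23 (SE 0.13) from number 1. Array number passed the threshold for Ebf1 (limma F test, adjusted p = 0.0307), a call that ended without Selp-/- 2 (0.0860), Selp-/- 3 (0.0718), WT 2 (0.131) or WT 3 (0.0668), with no filter (0.0699) and with no normalization (0.338). Pax5 measured 8.97, 9.11 and 8.83 in Selp-/- 1, 2 and 3, against 9.04, 9.24 and 9.09 in WT 1, 2 and 3. Its number 3 minus number 1 difference was -0.04 (SE 0.12), and array number did not pass (adjusted p = 0.424).

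Of the B cell receptor chains, Cd79b measured 10.81, 11.05 and 10.24 in Selp-/- 1, 2 and 3, against 10.74, 11.24 and 10.78 in WT 1, 2 and 3. Cd79a measured 10.17, 10.01 and 9.12 in Selp-/- 1, 2 and 3, against 10.02, 10.82 and 10.39 in WT 1, 2 and 3. Selp-/- 3 was the lowest array for both chains, and WT 2 the highest. Array number passed for neither, with an adjusted p of 0.102 for Cd79b and 0.330 for Cd79a (limma F test). Cd79a passed when Selp-/- 1 (0.0408) or WT 1 (0.0291) was left out.

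Vpreb1 measured 8.90, 9.13 and 9.03 in Selp-/- 1, 2 and 3, against 8.98, 9.28 and 8.65 in WT 1, 2 and 3. No array number stood apart for it (adjusted p = 0.289). Fcmr measured 8.58, 8.91 and 9.46 in Selp-/- 1, 2 and 3, against 9.24, 9.67 and 9.87 in WT 1, 2 and 3. Within each genotype the array numbered 3 was the highest, and within each number the Selp-/- array was the lower. Fcmr lay 0.76 (SE 0.13) higher in number 3 than in number 1 and 0.38 (SE 0.13) higher than in number 2, and array number passed (adjusted p = 0.0278). That call ended without Selp-/- 1 (0.103), Selp-/- 3 (0.0883), WT 1 (0.0709) or WT 2 (0.0522), and with no filter (0.0630).

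Array number thus passed for 4 of the 8 genes tested, with Il7r and Fcmr highest and Dntt and Ebf1 lowest in number 3, while it passed for 12.8% of all probe sets tested. Of all probe sets, 6.02% were called with their highest mean in number 3 and 6.55% with their lowest. Taken pair by pair at an adjusted p of 0.05 (limma), number 3 was higher than number 1 for 2 of the 8 genes, Il7r and Fcmr, against 6.08% of all probe sets, and lower for 1, Dntt, against 7%. Relative to number 2 it was higher for 1, Il7r, against 7.8%, and lower for 3, Dntt, Ebf1 and Cd79b, against 9.48%. Cd79b is in that count at -0.63 (SE 0.17), with an adjusted p of 0.0476, a call that ended with median centring (0.114), no normalization (0.520) or no filter (0.0670), and without Selp-/- 2 (0.165), Selp-/- 3 (0.274) or WT 2 (0.184). Between the arrays numbered 2 and 1, 0 of the 8 passed an adjusted p of 0.05 (limma), against 0.0521% of all probe sets, although 8 of 8 lay higher in number 2 in mean, by a median of 0.34 against 0.01 over all probe sets. That tally was 4 of 8 with log2(value + 16) and no normalization, and 6 of 8 without WT 1. At an unadjusted p under 0.05 there were 3 of the 8, Dntt, Ebf1 and Fcmr, against 7.96% of all probe sets.

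**Figure D2:**
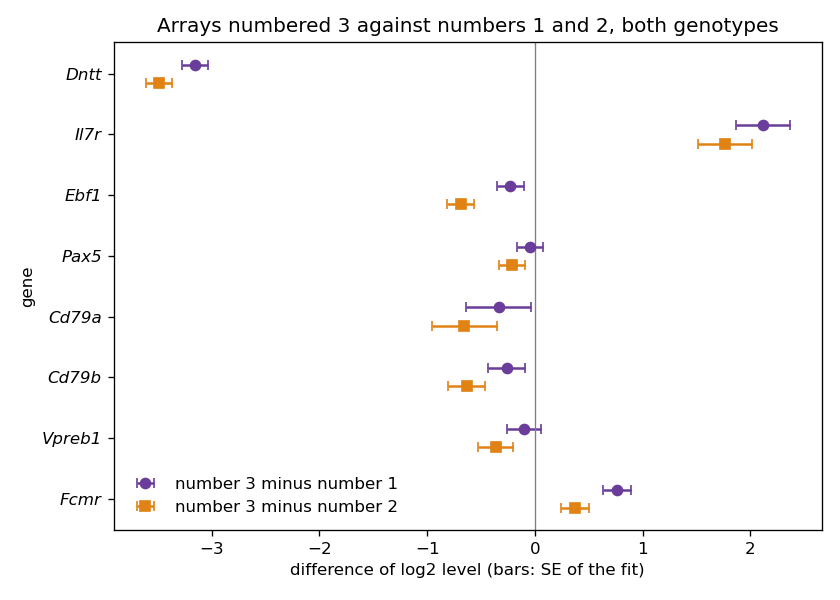
Difference of log2 level between the arrays numbered 3 and those numbered 1 (circles) or 2 (squares) for the 8 genes tested, from the fit with genotype, with the SE of the fit as bars. Dntt lies beyond 3 below 0 and Il7r near 2 above it, and the later B cell genes lie nearer to 0.

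Between genotypes, none of the 8 genes passed. Fcmr and Cd79a had the widest differences. Fcmr averaged 8.98 ± 0.44 in Selp-/- and 9.59 ± 0.33 in WT HSC (SD, n = 3 each), a log2 fold change of -0.61 (SE 0.26). Cd79a averaged 9.77 ± 0.56 in Selp-/- and 10.41 ± 0.40 in WT HSC (SD, n = 3 each), a log2 fold change of -0.64 (SE 0.32). The adjusted p from limma was 1 for each of the 8 genes. Without the arrays numbered 3 the difference was -0.71 for Fcmr and -0.32 for Cd79a, with limma adjusted p of 0.997 and 1.00. Of all probe sets 0% were called, with 0.706% at an unadjusted p under 0.05, where 0 of the 8 genes lay.

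The genotypes were then compared within each array number. The labels do not pair the arrays. In deviations from the genotype mean, Selp-/- 1 was nearer to WT 2 (r = 0.51) than to WT 1 (r = 0.43). Signs in numbers 1 and 2 thus rest on a pairing that these data do not settle. For Fcmr the difference was -0.66 in number 1, -0.76 in number 2 and -0.41 in number 3. All 3 pairs thus had the lower value in Selp-/-, though the 3 arrays of each genotype overlapped. With array number as a replicate block the SE for Fcmr was 0.11 and the 95% interval ran from -0.87 to -0.36, with an unadjusted p of 0.000792, rank 16 among the 17289 probe sets, and an adjusted p of 0.856 (limma). For Cd79a the differences were 0.15, -0.82 and -1.27, so that number 1 went the other way. Paired crosswise, Cd79a was 10.17 in Selp-/- 1 against 10.82 in WT 2, and 10.01 in Selp-/- 2 against 10.02 in WT 1. Its unadjusted p with the block was 0.0353 and its adjusted p 0.983. These are 2 of the 8 genes at an unadjusted p under 0.05, against 3.64% of all probe sets, and both were lower in Selp-/-, as were 1.75% of all.

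Il7r changed sign between the pairs, with 0.43 in number 1, -0.51 in number 2 and -0.63 in number 3. Dntt differed little between genotypes at any number, by -0.07, -0.04 and 0.04, and the 95% interval of its mean difference with the block was -0.26 to 0.21. For Ebf1, Pax5 and Fcmr Selp-/- was the lower array in all 3 pairs. This is 3 of the 8 genes against 11.2% of all probe sets, but for Ebf1 the smallest of these differences was -0.00024. With numbers 1 and 2 paired crosswise, only Fcmr of these genes stays lower throughout. Ebf1 was 9.24 in Selp-/- 2 and 8.87 in WT 1, and Pax5 9.11 and 9.04. Within numbers 1, 2 and 3 Cd79b gave 0.08, -0.19 and -0.54, and Vpreb1 -0.08, -0.15 and 0.38. In 0 of the 8 genes did the arrays of one genotype lie wholly apart from those of the other, against 4.21% of all probe sets. The median difference of the 8 genes was -0.19, against 0.01 for all probe sets tested.

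**Figure D3:**
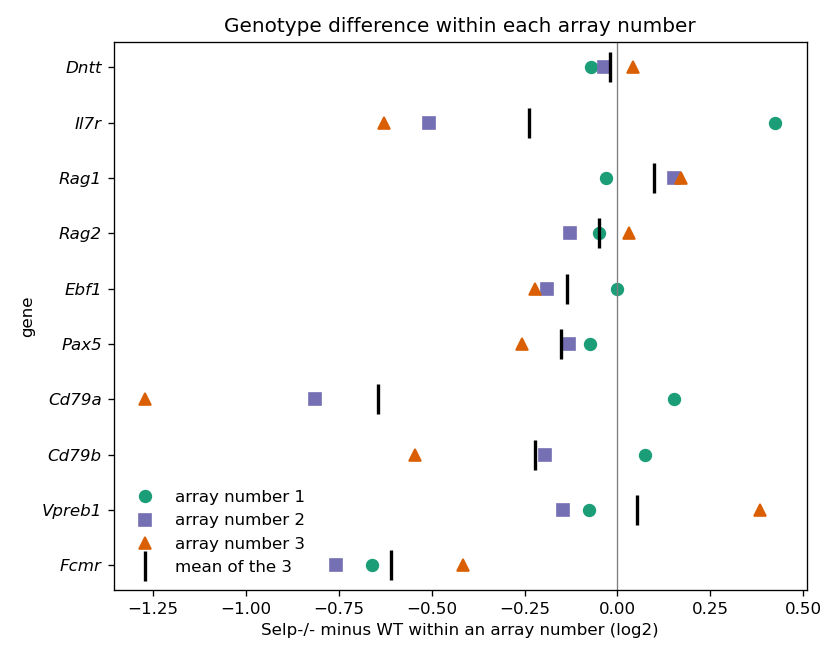
Selp-/- minus WT difference of log2 level within array numbers 1, 2 and 3 for all 10 genes, with a black bar at the mean of the 3. Fcmr lies below 0 at every number, Dntt stays near 0, and Cd79a and Il7r lie on both sides of 0.

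The early priming genes Dntt and Il7r diverged by array number, so a mean over the early genes combines opposite differences. With each gene set relative to its mean over the 6 arrays, the mean of Dntt, Il7r and Rag1 minus that of the other 7 genes was 0.13, 0.18 and -0.01 in Selp-/- 1, 2 and 3, and -0.07, -0.02 and -0.20 in WT 1, 2 and 3. Within each array number it was higher in Selp-/-, by 0.20, 0.21 and 0.19 in numbers 1, 2 and 3, while the 3 arrays of each genotype overlapped. These similar gaps combine unlike genes. Selp-/- minus WT was 0.43, -0.51 and -0.63 for Il7r and -0.66, -0.76 and -0.41 for Fcmr in numbers 1, 2 and 3. The early genes alone lay at 0.04, 0.25 and -0.37 in Selp-/- 1, 2 and 3, against -0.06, 0.38 and -0.23 in WT 1, 2 and 3. They were thus higher in Selp-/- in number 1 only. In number 3 their mean covers a fall of Dntt, a rise of Il7r and a nearly level Rag1. The later genes lay at -0.08, 0.07 and -0.36 in Selp-/- 1, 2 and 3, against 0.01, 0.40 and -0.03 in WT 1, 2 and 3. Their mean was lower in Selp-/- in every number, and includes Rag2, which was low in number 3. In number 1 Fcmr differed by -0.66, while the other later genes ran from -0.08 (Vpreb1) to 0.15 (Cd79a), so the lower mean there was not shared. No test was made of these means.

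The wider priming list also differed by array number, with more genes lowest than highest in number 3. Of 14 tested genes of the lymphoid priming list, 9 passed for array number. Among them 3 were highest and 6 lowest in number 3, beside 6.02% and 6.55% of all probe sets. The 3 highest were Id2, Gfi1 and Spi1, and the 6 lowest were Cd27, Flt3, Satb1, Mef2c, Bcl11a and Ly6d. Flt3, the receptor tyrosine kinase of lymphoid-primed progenitors, measured 11.75, 11.93 and 9.36 in Selp-/- 1, 2 and 3, against 12.14, 11.92 and 9.57 in WT 1, 2 and 3. Cd27, a TNF receptor family member, was lower in number 3 than in number 1 by a difference of -2.69 (SE 0.14). Id2, an inhibitor of E proteins, measured 10.17, 11.08 and 12.80 in Selp-/- 1, 2 and 3, against 9.81, 10.62 and 12.78 in WT 1, 2 and 3, and Gfi1, a repressor used in lymphoid and myeloid cells, lay 0.98 (SE 0.12) higher in number 3 than in number 1. The list's median was -0.49 for number 3 minus either other number, where all tested probe sets had -0.01 and -0.02.

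Among partners of the interleukin-7 receptor, 3 of 9 tested genes passed for array number, beside 12.8% of all probe sets. Bcl2, a survival gene downstream of the receptor, and Stat5b, a transcription factor it activates, fell in number 3, by 0.90 (SE 0.17) and 0.46 (SE 0.13) relative to number 1. Socs1, a feedback inhibitor of cytokine signalling, rose by 1.33 (SE 0.27). In V(D)J recombination, beyond the Rag genes, 1 of 10 passed, a share near that 12.8%. This was Xrcc5, the Ku80 end-binding protein, at -1.38 (SE 0.12).

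Of 8 other transcription factors of B cells, 2 passed for array number, beside 12.8% of all probe sets, Bach2 lower in number 3 than in number 1 by a difference of -0.83 (SE 0.13) and Spib higher by 0.66 (SE 0.15). Of 12 tested genes of the B cell receptor and its signalling, 3 passed, beside the same 12.8%. Igll1, which pairs with Vpreb1 in the surrogate light chain, had its lowest mean in number 3, with 9.94, 10.29 and 9.48 in Selp-/- 1, 2 and 3, against 9.82, 10.49 and 9.33 in WT 1, 2 and 3. Pik3ap1, an adaptor of the receptor, and Cd22, an inhibitory co-receptor, were highest there. The mature B cell markers Ms4a1, Cr2, Fcer2a and Bank1 were all under the mean level for testing, with Ms4a1 between 7.97 and 8.98 over the 6 arrays and Cr2 between 7.66 and 8.13. Between genotypes 0 of the 53 tested probe sets of these 5 lists passed an adjusted p of 0.05 (limma), and 0 had an unadjusted p under 0.05. With the replicate block 0 passed and 2 had an unadjusted p under 0.05, a share near the 3.64% of all probe sets.

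Markers of other cells were set beside these values, and their part in the results was not tested. Of the HSC list 6 of 8 tested genes passed for array number, beside 12.8% of all probe sets, and all 6 had their lowest mean in number 3. Its summed linear level ran from 5579 to 5727 in the arrays numbered 3 and from 17555 to 24285 in the other 4. Such sums, here and below, add unlike probe sets and follow the brightest, so they compare arrays for 1 list and not lists. Hlf, a transcription factor of HSC, differed by -3.45 (SE 0.15) between numbers 3 and 1. Angpt1, Meis1 and Mecom, of the same list, differed by -2.28, -1.78 and -1.86.

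Higher in number 3, together with Il7r, were 5 of 5 tested mast cell and basophil genes, 10 of 11 neutrophil genes and 3 of 5 monocyte and macrophage genes, beside 6.02% of all probe sets. The summed level of the mast cell and basophil list, all 8 probe sets, ran from 41458 to 55181 in the arrays numbered 3, against 4214 to 5118 in the others. That of the neutrophil list ran from 86338 to 86367, against 22572 to 55757, and that of the 6 monocyte and macrophage probe sets from 8975 to 9109, against 2923 to 3294. Mcpt8, Cpa3, Prss34 and Fcer1a of mast cells and basophils lay 4.57, 3.46, 3.42 and 2.06 above number 1. Cxcr2, Ngp, Lcn2 and Elane of neutrophils lay 2.99, 0.81, 1.22 and 0.68 above it, and 3.79, 3.81, 3.50 and 1.96 above number 2. The neutrophil list was also low in number 2, with means relative to the 6 arrays of -1.23 (Selp-/-) and -1.27 (WT). These means were 0.11 and 0.22 in number 1, against 1.03 and 1.15 in number 3. Adgre1, Ccr2 and Csf1r of monocytes and macrophages lay 3.69, 2.00 and 1.38 above number 1.

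The T, NK and innate lymphoid list, whose cells also use Il7r, had a summed level of 15164 to 15198 in the arrays numbered 3, against 10464 to 11499 in the others, over 12 probe sets. Only 7 of these were tested, 2 called highest and 1 lowest in number 3. The sum weighs the brightest probe sets most. Over the 7 tested genes the median was 0.01 for number 3 minus number 1 and -0.07 for number 3 minus number 2. Thy1, a surface protein of T and innate lymphoid cells, measured 9.51, 9.99 and 11.30 in Selp-/- 1, 2 and 3, against 9.41, 9.52 and 12.33 in WT 1, 2 and 3. As for Il7r, both arrays numbered 3 were the highest and WT 3 lay above Selp-/- 3. That order was not particular to Thy1. Cpa3, Cxcr2 and Adgre1 of the mast cell, neutrophil and monocyte lists had it too, while Csf1r was higher in Selp-/- 3 than in WT 3. Nkg7, a granule protein of NK cells that is also found in other blood cells, was higher in number 3 than in number 1 by 0.42 (SE 0.13). Gata3, which these lineages need, was lower by a difference of -1.23 (SE 0.14), Cd3e was level across numbers with an adjusted p of 0.919, and Cd3d, Cd3g, Klrb1c, Ncr1 and Il2rb were too dim for testing.

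The mature B cell markers Bank1 and Cr2, too dim for testing, differed between genotypes in the direction of Cd79a at every number. Bank1 measured 9.08, 8.78 and 8.21 in Selp-/- 1, 2 and 3, against 8.95, 8.91 and 8.74 in WT 1, 2 and 3. Cr2 measured 7.99, 7.83 and 7.66, against 7.91, 8.13 and 8.04. Ms4a1 and Fcer2a, also dim, were lower in Selp-/- at every number. Beside Cd79a also stand differences of the plasma cell list, in the same direction in numbers 1 and 2 and not in number 3. Its mean relative to the 6 arrays was 0.53, 0.08 and -0.52 in Selp-/- 1, 2 and 3, against -0.27, 0.78 and -0.60 in WT 1, 2 and 3. Selp-/- minus WT was thus 0.80, -0.70 and 0.09 in numbers 1, 2 and 3 for the list, where Cd79a had 0.15, -0.82 and -1.27. Jchain, which joins secreted immunoglobulins and was the 1 of 5 genes of this list that passed for array number, measured 12.92, 12.07 and 9.65 in Selp-/- 1, 2 and 3, against 11.92, 13.69 and 9.85 in WT 1, 2 and 3, a difference of -0.20 in number 3. In the dendritic list 2 of 6 genes passed, Itgax with its highest and Tcf4 with its lowest mean in number 3. Of 4 erythroid genes 2 passed, Car1 at -4.87 (SE 0.12) and Klf1 at -1.26 (SE 0.19) relative to number 1. Relative to number 2 they lay at -2.88 (SE 0.12) and 0.03 (SE 0.19), so only Car1 had its lowest mean in number 3. Between genotypes 0 of the 51 tested probe sets of these 8 cell type lists passed (limma), with 0 at an unadjusted p under 0.05. With the replicate block 0 passed and 5 had an unadjusted p under 0.05, beside 3.64% of all probe sets.

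**Figure D4:**
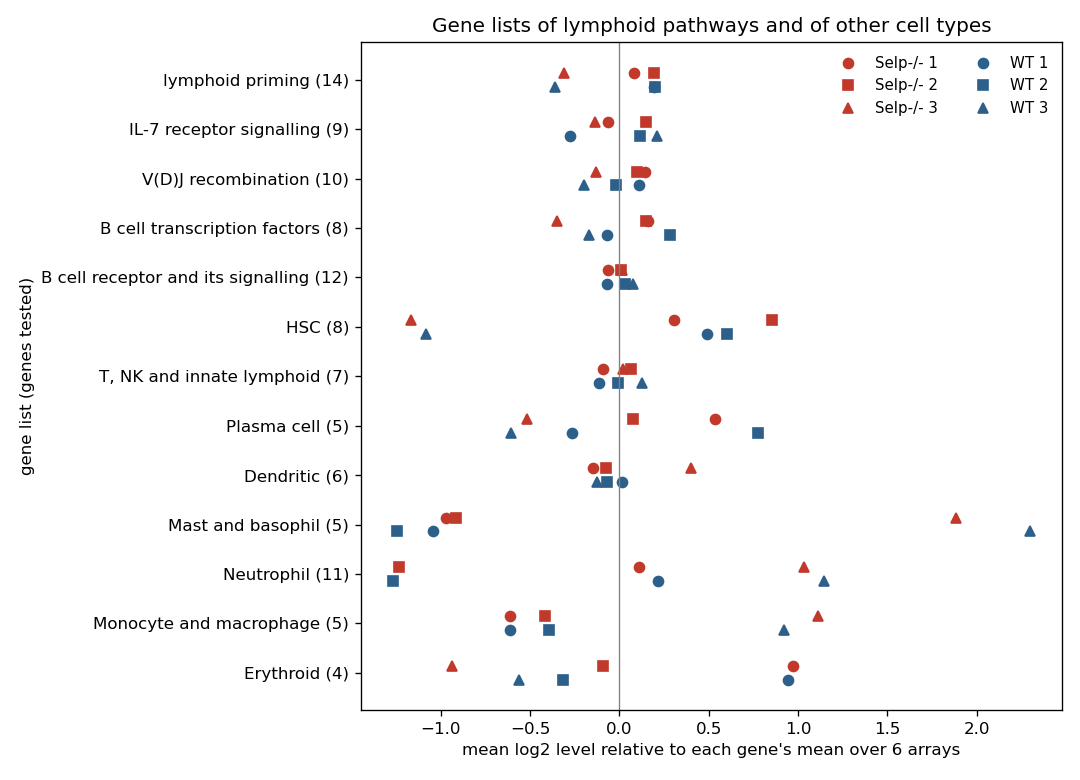
Mean log2 level of 5 lymphoid lists and 8 cell type lists on each array, relative to each gene's mean over the 6 arrays, Selp-/- above WT in each row and the number of tested genes in brackets. The arrays numbered 3 lie low for HSC genes and high for mast cell, neutrophil and monocyte genes, while the 5 lymphoid lists lie between -0.36 and 0.28. Such means can hide opposite differences, as in the lymphoid priming list, where number 3 minus number 1 was 2.80 for Id2 and -2.69 for Cd27.

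The genes most like each member were found by Pearson's r of the log2 level over the 6 arrays among 12970 named, tested probe sets, as a description, since arrays of one number are not independent and those numbered 3 form a cluster of their own. Ddb2, Tmem42 and Heg1 came nearest to Dntt, with r between 0.998 and 1.00 but smaller differences of -0.37, -1.03 and -0.54 between numbers 3 and 1. Lpgat1, Coro1b and Syngr2 came nearest to Il7r (r from 0.995 to 0.997), with 0.77, 0.49 and 0.58. Tap1, Mical2 and Cabp2 came nearest to Rag1 (0.979 to 0.983), and Apbb2, Rsrc2 and Zfc3h1 to Ebf1 (0.989 to 0.995). Dnajc24, Zfp961 and Pcdh7 came nearest to Cd79a (0.973 to 0.978), and of these Pcdh7 had the widest genotype difference, -0.32.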

How the data were processed

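RNA of 6 HSC samples, 3 Selp-/- and 3 WT, was amplified, labelled with biotin and hybridized to 1-colour arrays, per the labels' protocols. The deposited values are linear intensities of 28815 probe sets. MAS5 is named without a version, per the submitters' processing notes, and a genome build is not given in those notes. The intensities were multiples of 0.5 with medians from 563 to 751, so no common scaling was visible in them. Depth is not defined for arrays, and their number limits the precision.

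Intensities were corrected by normexp (offset 50), converted to log2 and quantile normalized with limma 3.58.1 under R 4.3.3. Probe sets under the 40th percentile of mean level were left out. Genotype was fitted alone, and array number by a moderated F test with genotype in the fit, both by lmFit and eBayes with a variance trend, two-sided, with Benjamini-Hochberg adjustment over all 17289 probe sets and a threshold of 0.05. The fits were tested on simulated data, in which the genotype fit met no effect of array number. The power of that fit on these arrays was not tested.

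Names came from the platform annotation, updated through RefSeq gene identifiers: 21780 probe sets had 1 symbol, 1605 several and 5430 none, and only the first were named. The 10 genes, the 13 gene lists and the tests were chosen with earlier results of these data known. Of each list, the text names up to 4 genes past the threshold by smallest p, or else the 2 of smallest p, and the 3 nearest genes of 5 members; others it names were chosen after their values were seen. Lists use the brightest probe set of each gene.

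Deviations from the genotype mean correlated at 0.43, 0.53 and 0.81 between the arrays numbered 1, 2 and 3, all above 0.1, and by that criterion array number served as the replicate block. Across numbers 1 and 2 they correlated at 0.51 (Selp-/- 1 with WT 2) and 0.37 (Selp-/- 2 with WT 1). Selp-/- 1 was thus nearer to WT 2 than to WT 1, and these correlations set only number 3 apart. Numbers 1 and 2 still differed for some genes. The median of number 2 minus number 1 was -1.28 for the neutrophil list and -1.10 for the erythroid list. Alternatives were no background correction, median centring, log2(value + 16) without normalization, no filter, each array left out, the replicate block and the arrays numbered 1 and 2 alone.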

Additional observations from a re-analysis of the deposited data

How the results depend on the processing

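Between genotypes 0 of the 8 genes passed under every alternative run, the replicate block included (0 to 0 with an array left out), and the block changed no call. For array number, 4 genes passed without background correction and with median centring. There were 3 with no filter (Dntt, Il7r and Rag2, of 10 tested) and 3 with log2(value + 16) and no normalization (Dntt, Il7r and Fcmr), and 2 to 4 with an array left out, with 2 without Selp-/- 3 or without WT 2. Dntt and Il7r passed in each of these. With the arrays numbered 3 left out, which was tried after the data had been seen, 0 passed for array number (limma), among 87 of all probe sets; fewer samples enter this fit. Signs turned for some differences that had not passed, and the cause was not tested. The genotype difference of Dntt was 0.039 with median centring and 0.12 without normalization, where the median of all probe sets was itself 0.11, and that of Vpreb1 was -0.11 on arrays 1 and 2 alone. Without normalization number 2 minus number 1 was -0.048 for Dntt, -0.017 for Pax5, -0.0015 for Cd79a and -0.012 for Cd79b, number 3 minus number 1 was 0.10 for Pax5 and 0.060 for Vpreb1, and number 3 minus number 2 was 0.12 for Pax5. With an array left out, genotype differences ran from -1.14 to 1.07 for Dntt, -0.82 to 0.51 for Il7r, -0.32 to 0.068 for Ebf1, -0.40 to 0.0088 for Cd79b and -0.11 to 0.21 for Vpreb1. Number 2 minus number 1 ran from -0.15 to 0.84 for Il7r and -0.28 to 0.91 for Cd79a, and number 3 minus number 1 from -0.12 to 0.033 for Pax5, -0.93 to 0.26 for Cd79a and -0.35 to 0.15 for Vpreb1.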
